A study of Mus musculus with 6 samples.

Results

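The genes of the gelsolin and villin family were examined in epithelial cells of the mouse large intestine, with and without the histone deacetylase HDAC3. The 8 members were chosen by name, as the genes built from gelsolin repeats: Capg, Vil1, Vill, Gsn, Scin, Avil, Svil and Flii. Within a gene, the probe set was to be selected on its mean over the 6 arrays, and each of the 8 genes had only 1 probe set that named it alone, so no second readout of any member was used. All 8 were found among 19533 genes measured. The mean levels are given as a description, and since the family was put forward with its genotype differences known, its counts support nothing beyond these values.

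The arrays came from 6 germ-free mice of strain C57BL/6, which carry no microbiota. In 3 of them, HDAC3FF, the Hdac3 alleles were floxed and intact. In the other 3, HDAC3ΔIEC, Hdac3 had been deleted within intestinal epithelial cells. Both groups were germ-free, so no colonised animal enters any comparison, and the labels name neither the driver of the deletion nor the animals' age. The cells were live and positive for the epithelial surface protein EpCAM, and total RNA of each mouse went onto 1 Affymetrix array. The comparison addresses how the epithelial transcriptome differs with HDAC3 when no bacteria are present.

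Proteins with gelsolin repeats bind actin in a way that is set by calcium and by membrane phosphoinositides. Most can cut actin filaments and then stay on the growing end as a cap, and some also bundle filaments through an added headpiece. Villin is the member best known in the gut, where it bundles and severs actin in the microvilli of the brush border. HDAC3 works inside NCoR and SMRT corepressor complexes, which nuclear receptors bring to DNA.

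The promoter windows of the members that mark the range of the data are printed first. Capg had the largest difference between the genotypes, Scin the largest in the other direction, and Vil1 is the brush border member. Each window is RefSeq sequence of build GRCm38.p6, from 250 bases before a start site to 50 after it, written 5′ to 3′ on the strand of the gene. Capitals mark matches to 6 motifs searched on both strands. These were the nuclear receptor half-site AGGTCA, the AP-1 site TGANTCA, the GC box GGGCGG, the CDX element TTTATNG, the TATA box TATAAA and the CArG box bound by serum response factor. The Capg window is chr6:72549397-72549696 on the plus strand, the Vil1 window chr1:74409134-74409433 on the plus strand and the Scin window chr12:40134179-40134478 on the minus strand.
Capg: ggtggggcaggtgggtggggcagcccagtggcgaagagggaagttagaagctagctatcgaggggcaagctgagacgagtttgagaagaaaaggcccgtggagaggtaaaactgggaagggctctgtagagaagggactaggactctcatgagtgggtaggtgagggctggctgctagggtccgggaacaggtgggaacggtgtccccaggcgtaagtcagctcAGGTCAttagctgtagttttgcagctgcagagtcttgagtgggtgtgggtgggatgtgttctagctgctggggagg
Vil1: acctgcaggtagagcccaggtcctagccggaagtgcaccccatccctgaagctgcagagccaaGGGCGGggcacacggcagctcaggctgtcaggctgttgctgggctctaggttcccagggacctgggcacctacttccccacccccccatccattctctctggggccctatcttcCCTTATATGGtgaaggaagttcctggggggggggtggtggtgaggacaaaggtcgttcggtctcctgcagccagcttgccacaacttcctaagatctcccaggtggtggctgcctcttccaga
Scin: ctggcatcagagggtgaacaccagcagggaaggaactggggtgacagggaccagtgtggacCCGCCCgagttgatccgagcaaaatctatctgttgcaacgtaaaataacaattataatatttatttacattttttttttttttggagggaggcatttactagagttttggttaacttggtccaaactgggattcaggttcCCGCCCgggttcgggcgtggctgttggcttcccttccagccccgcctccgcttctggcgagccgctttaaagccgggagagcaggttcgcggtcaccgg

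The only match in the Capg window was a nuclear receptor half-site that begins 26 bases before the start. The same letters are held by 16.3% of 32851 promoter windows of this length. The Vil1 window had a CArG box 73 bases before the start, a motif held by 1.63% of the windows, and a GC box at 187 bases before it. The Scin window had GC boxes beginning 189 and 49 bases before the start, and neither a half-site nor a CArG box. Windows were at hand for 7 of the 8 members, 9 windows in all since Gsn has 3. Over these 9, a half-site was found in 2 (Capg and 1 of Gsn) and a GC box in 6 (against 35.7% of all windows). The 6 are those of Vil1, Flii and Scin and all 3 of Gsn, so they are not 6 genes. A CDX element was found in 1 (Vill, against 10.9%), a CArG box in 1, and an AP-1 site or a TATA box in none (against 7.81% and 13.6%). A match describes the letters of the window only, and the arrays do not tell which start site was used.

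Hdac3 itself, which checks the labels, was lower on every HDAC3ΔIEC array than on any control array. Its mean log2 signal was 7.12 ± 0.21 in HDAC3FF and 6.27 ± 0.29 in HDAC3ΔIEC (SD, n = 3 each), which is not a call in the fit over all genes (limma, adjusted p = 0.0937). Array medians lay between 5.25 and 5.31 on the log2 scale. The 6 epithelial markers had a median signal of 11.55 to 12.01 on the HDAC3FF arrays and 12.19 to 12.31 on the HDAC3ΔIEC arrays, and those of lymphocytes, endothelium, fibroblasts and smooth muscle, and neurons and glia lay between 4.02 and 5.01. Each mouse gave 1 array, and with 3 per group their number limits precision throughout.

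Of the 8 members, 1 passed the test over all genes, Capg, and it was higher in HDAC3ΔIEC. At an adjusted p under 0.05, limma called 0.701% of all genes in either direction and 0.369% as higher. The groups did not overlap for 2 members, Capg and Scin, against 16.2% of all genes. By value, 4 members were higher and 4 lower, and the median log2 fold change was 0.01 over the members and 0.01 over all genes. The other 7 members had log2 fold changes between -0.55 and 0.26, and none of these passed.

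**Figure D1:**
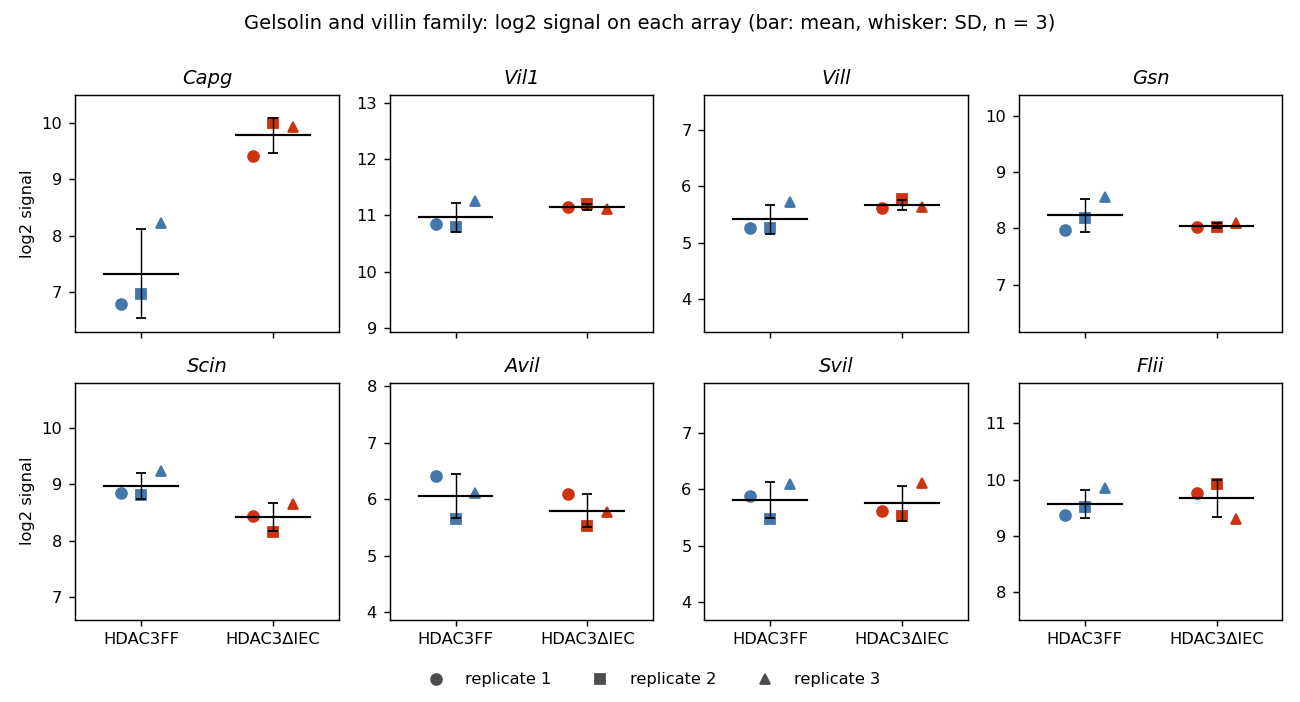
Log2 signal of the 8 family members on each of the 6 arrays, with HDAC3FF in blue and HDAC3ΔIEC in red; symbols mark the replicate number, bars the group mean and whiskers the SD (n = 3). Every panel spans the same log2 range. Capg lies at 9.42 to 9.99 on the HDAC3ΔIEC arrays and at 6.79 to 8.23 on the control arrays, while for Vil1 the groups overlap.

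Capg encodes the macrophage-capping protein, which caps the growing ends of actin filaments and, unlike gelsolin, does not sever them. Its log2 signal was 6.79, 6.96 and 8.23 on the HDAC3FF arrays and 9.42, 9.99 and 9.92 on the HDAC3ΔIEC arrays. All HDAC3ΔIEC values lay above all control values, with a gap of 1.19 between the highest control and the lowest HDAC3ΔIEC array. The group means were 7.33 ± 0.78 and 9.77 ± 0.31 (SD, n = 3 each). Capg rose 5.45-fold (95% interval 2.99 to 9.93), or by 2.45 ± 0.37 on the log2 scale (SE, limma adjusted p = 0.0435). Its absolute log2 fold change exceeded that of 99.94% of the 19533 genes. An exact permutation test over the arrays, two-sided, returned its smallest possible value for 3 against 3, p = 0.1. In RNA of a whole cell population, a change in the number of cells that carry a transcript and a change in its amount per cell cannot be told apart.

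The Capg call depended on which arrays were used. Without HDAC3FF replicate 3, the control with the highest Capg signal, the difference was 2.90 ± 0.18 on the log2 scale (SE, limma adjusted p = 0.00142). Leaving out any of the other 5 arrays gave 2.18 to 2.63 and no call (limma adjusted p from 0.110 to 0.200), and adjustment over all probe sets gave 0.0553.

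**Figure D2:**
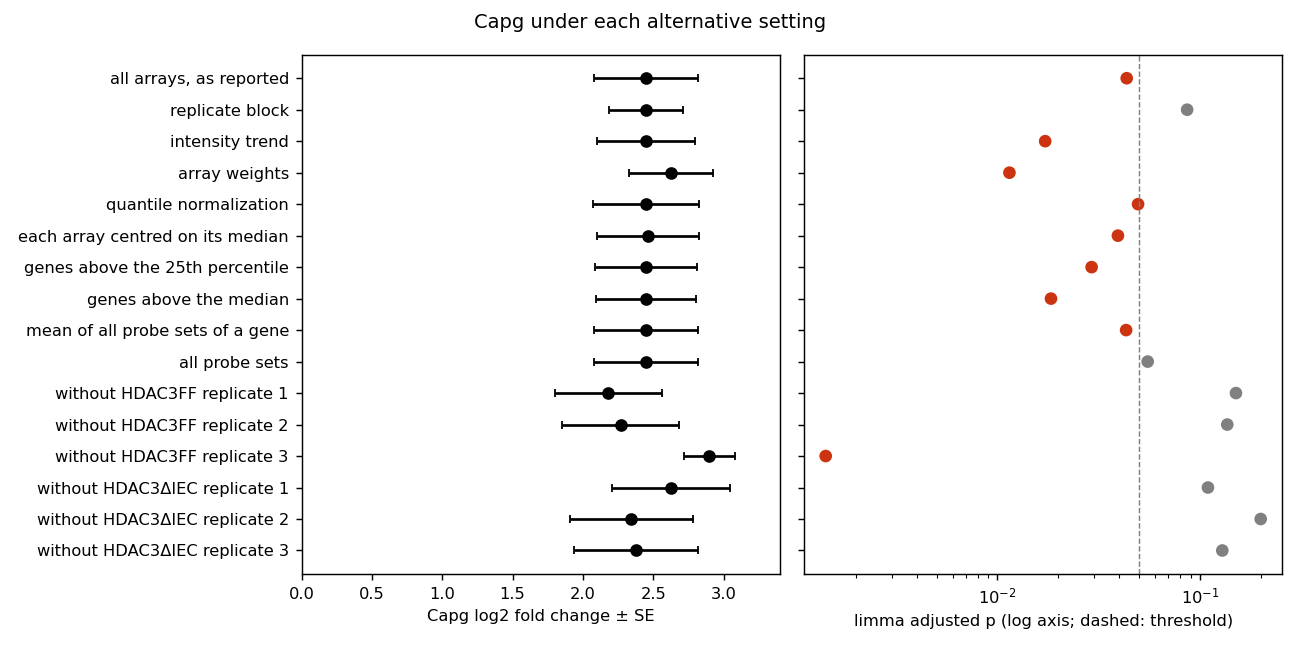
Capg under each setting, one row per setting: the left panel gives the log2 fold change (HDAC3ΔIEC minus HDAC3FF) with its SE, the right panel the limma adjusted p on a log axis with the 0.05 threshold dashed and passing values in red. The log2 fold change stays between 2.18 and 2.90 in every row, while the adjusted p runs from 0.00142 to 0.200.

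Because macrophages also express Capg, markers of other cells were read beside it. Of 12 myeloid markers, 6 were higher and 6 lower by value, with a median log2 fold change of 0.00. The complement gene C1qa was called lower and none was called higher. The complement genes C1qb and C1qc had log2 fold changes of 0.07 ± 0.10 and -0.11 ± 0.11 (SE), neither called. Their group means all lay under the median of every array, so a fall like that of C1qa might not show in them. The groups were also separate for the macrophage gene Cd68 (0.51 ± 0.13, SE) and for Cx3cr1 (0.22 ± 0.10), both higher in HDAC3ΔIEC and neither called (limma adjusted p = 0.174 and 0.461). The summed linear signal of the list, to which Cd14 and C1qa contribute most, was 578 to 654 on the control arrays and 468 to 541 on the HDAC3ΔIEC arrays. In HDAC3FF and HDAC3ΔIEC, mean log2 signals were 7.98 and 7.58 for Cd14, 6.84 and 5.13 for C1qa and 5.42 and 5.93 for Cd68. For 8 of the 12, Lyz2, Csf1r, Adgre1, C1qb, C1qc and Ptprc among them, both group means lay under the median of every array.

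Of 11 enteroendocrine markers, 1 was called higher, Pyy, which encodes the hormone peptide YY, and none was called lower. By value 9 were higher and 2 lower, the latter being Tac1 (-0.69 ± 0.17, SE), whose groups did not overlap, and Rfx6 (-0.09 ± 0.13). The median log2 fold change was 0.75, and 7 of the 11 had an unadjusted limma p under 0.05, against 11.2% of all genes. Genotypes were separate for 6 of the 11, Pyy and Tac1 among them, against 16.2% of all genes. Sst had the largest log2 fold change of the list (2.74 ± 0.44, SE, limma adjusted p = 0.0500017) and was not called. Gcg, Cck and Neurod1 had log2 fold changes of 1.91, 1.84 and 1.21, with separate groups and no call. The summed linear signal of the 11 markers was 2654 to 4845 on the control arrays and 7390.1 to 9755 on the HDAC3ΔIEC arrays. Of the 6 epithelial markers none was called. The groups did not overlap for 4, the keratin genes Krt8, Krt18, Krt19 and Krt20, against 16.2% of all genes. These 4 were higher on every HDAC3ΔIEC array than on any control array, with log2 fold changes of 0.26 to 0.53. Sums on the control and HDAC3ΔIEC arrays were 21610 to 25485 and 26850 to 29589 for the epithelial markers. They were 188 to 221 and 226 to 255 for the 7 of neurons and glia, again without overlap. For the 7 of endothelium they were 167 to 193 and 183 to 198, which overlap. No marker of these 2 lists was called. Of the 7 of neurons and glia, 6 were higher and 1 lower by value. The groups did not overlap for 2, Ret (0.60 ± 0.13, SE, limma adjusted p = 0.106) and Uchl1, against 16.2% of all genes. The part of any of these cells in the Capg result was not tested.

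Pyy was also the gene whose profile lay nearest to Capg. Likeness was measured as the root mean square difference of log2 signals over the 6 arrays, each gene centred on its own mean. It was 0.29 for Pyy, 0.39 for the galectin gene Lgals2 and 0.42 for the creatine kinase gene Ckb. Pyy read 8.93, 8.52 and 9.95 on the HDAC3FF arrays and 11.41, 11.27 and 11.40 on the HDAC3ΔIEC arrays. Like Capg, it was highest among the controls in replicate 3. Lgals2 had a log2 fold change of 2.27 ± 0.20 (SE) and Ckb one of 2.83 ± 0.15. All 3 passed over all genes, with limma adjusted p of 0.0405 for Pyy, 0.00923 for Lgals2 and 0.000645 for Ckb. The measure picks genes with a similar genotype difference, so these values describe the profiles and test nothing.

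**Figure D3:**
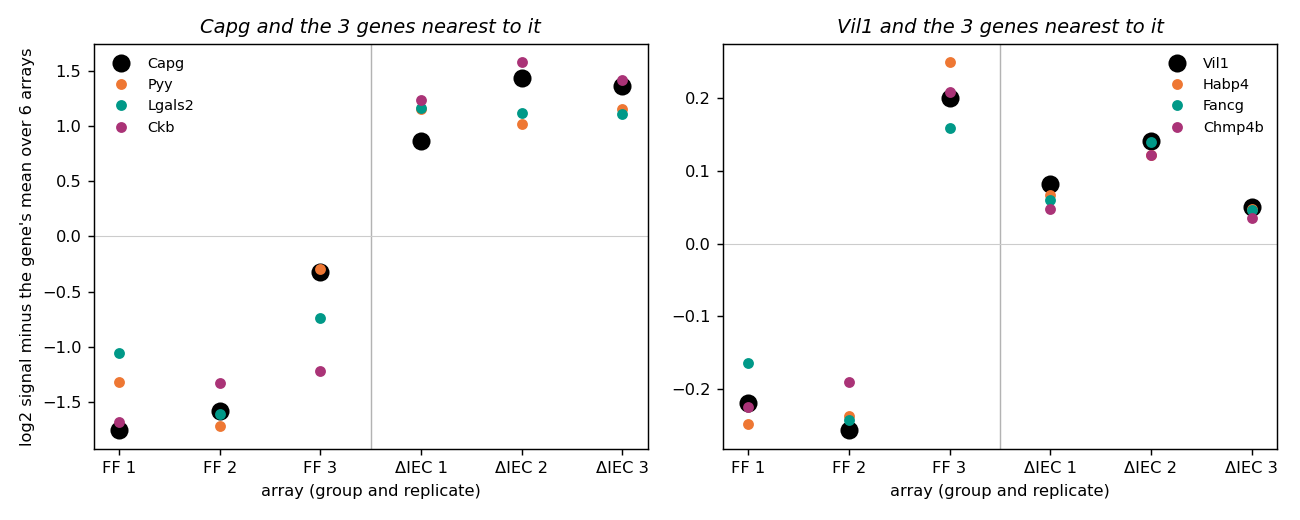
Log2 signal minus the gene's mean over the 6 arrays, for Capg (left) and Vil1 (right), each as a large black point with the 3 genes of smallest root mean square difference in colour; the vertical line separates HDAC3FF from HDAC3ΔIEC, and the panels differ in scale. On the left all genes are lower on the 3 control arrays, with replicate 3 the highest control; on the right HDAC3FF replicate 3 stands above the other 5 arrays.

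Villin and its closest relatives carry the headpiece that allows bundling. Vil1, which encodes villin itself, read 10.84, 10.80 and 11.26 on the HDAC3FF arrays and 11.14, 11.20 and 11.11 on the HDAC3ΔIEC arrays. The groups overlapped, since HDAC3FF replicate 3 read higher than every HDAC3ΔIEC array. The difference of 0.18 ± 0.13 (log2, SE) had a 95% interval from -0.13 to 0.49 and was not called (limma adjusted p = 0.715). Vill, the gene of villin-like protein, read 5.27, 5.26 and 5.72 in HDAC3FF and 5.62, 5.78 and 5.63 in HDAC3ΔIEC. As for Vil1, HDAC3FF replicates 1 and 2 were the lowest arrays, and replicate 3 lay among the HDAC3ΔIEC values. Its log2 fold change was 0.26 ± 0.14 (SE; limma, adjusted p = 0.573), with a 95% interval from -0.06 to 0.58.

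The genes with profiles nearest to Vil1 were Habp4, Fancg and Chmp4b, which encode a hyaluronan-binding protein, a DNA repair protein and a subunit of the ESCRT-III membrane-remodelling complex. Their root mean square differences from Vil1 were 0.027, 0.030 and 0.033 over the 6 arrays. None of the 3 passed over all genes (limma adjusted p from 0.713 to 0.802).

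Avil encodes advillin, a villin relative known from sensory neurons and tuft cells. It read 6.41, 5.64 and 6.12 on the HDAC3FF arrays and 6.10, 5.52 and 5.78 on the HDAC3ΔIEC arrays. The groups overlapped, with replicate 2 the lowest array in each. For Avil the log2 fold change was -0.26 ± 0.22 (SE; limma, adjusted p = 0.775), with a 95% interval from -0.78 to 0.26. Tuft cell markers were read beside it. None of the 12 measured passed (limma, 1 with an unadjusted p under 0.05, against 11.2% of all genes). By value 5 were higher and 7 lower, and their median log2 fold change was -0.08. The 1 was Gng13, the only one of them with separate groups, lower in HDAC3ΔIEC (-1.36 ± 0.41, SE). The summed linear signal of the list was 701 to 1291 in HDAC3FF and 637 to 1130.3 in HDAC3ΔIEC, so the sums overlapped.

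Svil encodes supervillin, which ties actin and myosin II to the cell membrane. It read 5.88, 5.48 and 6.10 in HDAC3FF and 5.63, 5.53 and 6.11 in HDAC3ΔIEC. The groups covered nearly the same range, and the log2 fold change was -0.06 ± 0.20 (SE, limma adjusted p = 0.959). Its 95% interval ran from -0.54 to 0.41, and its sign changed when single arrays were left out. Vill, Avil and Svil had mean signals within 1 log2 unit of the array medians, and the deposited values do not mark which signals are above background, so it is not known whether these 3 were detected.

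Gelsolin and adseverin are the members that sever filaments in the cytoplasm of many cell types. Gsn, the gelsolin gene, read 7.97, 8.19 and 8.55 on the HDAC3FF arrays and 8.02, 8.02 and 8.10 on the HDAC3ΔIEC arrays. The HDAC3ΔIEC arrays lay within 0.08 of each other, inside the wider control range of 0.58. Gsn had a log2 difference of -0.19 ± 0.15 (SE; limma, adjusted p = 0.743), and one of -0.03 without HDAC3FF replicate 3. Fibroblasts and smooth muscle are rich in gelsolin. Their 13 markers had summed linear signals of 421 to 498 in HDAC3FF and 445 to 508 in HDAC3ΔIEC, and none passed (limma, 1 with an unadjusted p under 0.05).

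Scin encodes adseverin, also called scinderin, which severs cortical actin and is known for clearing the way for secretory granules. It read 8.86, 8.82 and 9.24 on the HDAC3FF arrays and 8.44, 8.16 and 8.65 on the HDAC3ΔIEC arrays. Each HDAC3ΔIEC value lay under each control value, with a gap of 0.17. The mean went from 8.97 ± 0.24 to 8.42 ± 0.24 (SD, n = 3 each), which is 68.1% of the control level. The difference of -0.55 ± 0.16 (log2, SE) was not called among all genes (limma, adjusted p = 0.232), although its own 95% interval, which is not adjusted for the number of genes, ran from -0.94 to -0.17. Over the arrays the exact permutation p was again 0.1. Goblet cell markers, of a secretory cell type of this tissue, had summed linear signals of 34708 to 40908 in HDAC3FF and 37458 to 38025 in HDAC3ΔIEC, and none of the 7 measured passed (limma, 0 with an unadjusted p under 0.05).

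Flii encodes the flightless-1 homolog, which joins gelsolin repeats to leucine-rich repeats and is also known as a coactivator of nuclear receptors. It read 9.36, 9.51 and 9.85 in HDAC3FF and 9.77, 9.93 and 9.31 in HDAC3ΔIEC. The lowest of all 6 values was an HDAC3ΔIEC array and so was the highest. For Flii the log2 fold change was 0.09 ± 0.19 (SE; limma, adjusted p = 0.930), with a 95% interval from -0.35 to 0.54, and its sign too changed when single arrays were left out.

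**Figure D4:**
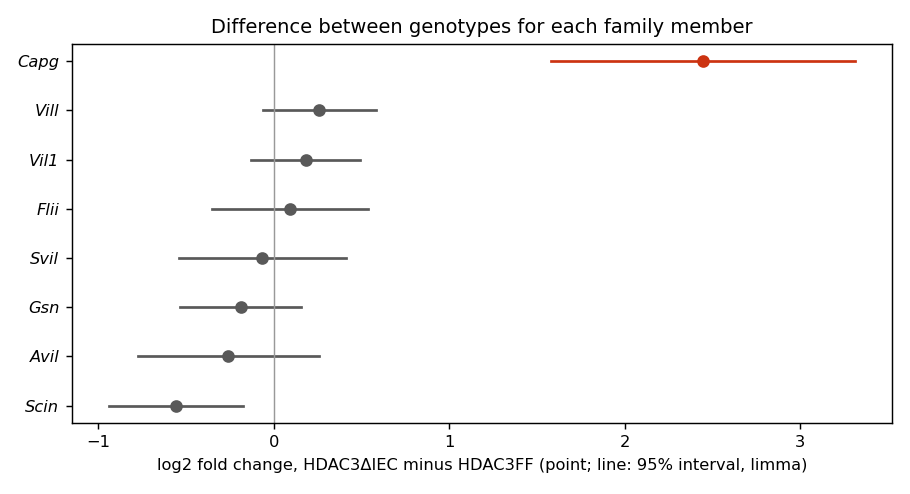
Log2 fold change of each member, HDAC3ΔIEC minus HDAC3FF, as a point with its unadjusted 95% interval from limma; red marks the member that passed over all genes. The Capg interval runs from 1.58 to 3.31, that of Scin from -0.94 to -0.17, and the intervals of the other 6 members include 0.

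The intervals put the lower bound for Capg, 1.58, above the upper bound of every other member, of which the highest is 0.58 for Vill. Whether the Capg difference departs from those of its relatives was not tested as such. Among the controls, replicate 3 gave the highest signal for 7 of the 8 members, all but Avil. It did so for 39.3% of all genes and for 42.6% of the genes with a mean signal above the 75th percentile. For Vil1, Vill, Gsn, Scin, Svil and Flii it lay 0.41 to 0.47 above the mean of the other 2 controls, and for Capg 1.35 above. Without this array the log2 fold change was 0.33 for Vil1, 0.41 for Vill and -0.42 for Scin, and none of the 3 passed.

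The other actin genes were read from 6 lists, which also hold the keratin gene Krt20 and have 136 entries. Of these, 129 were measured and 7 were not used, 1 of them because its probe set names several genes. None of the 129 passed limma's test over all genes, where 32 (24.8%) had an unadjusted p under 0.05, against 11.2% of all genes. Their median log2 fold change was 0.06, against 0.01 over all genes.

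Brush border and microvillus genes are the setting in which villin works. None of 27 passed (4 with an unadjusted p under 0.05), 16 were higher and 11 lower by value, and the median log2 fold change was 0.06, in a range from -0.41 to 0.52. The groups did not overlap for 3 of them, Myo1a, Calml4 and Krt20, against 16.2% of all genes. Krt20, a keratin gene that is also 1 of the epithelial markers above, passed without HDAC3FF replicate 3 (0.59, limma adjusted p = 0.0436). The smallest p-values belonged to Myo1a, the microvillar myosin (0.24 ± 0.08, SE), and Calml4, a calmodulin-like light chain of the brush border (-0.29 ± 0.10). Myo1a read 10.47, 10.47 and 10.55 in HDAC3FF and 10.77, 10.75 and 10.69 in HDAC3ΔIEC. Its groups were separate at a difference of under 0.3 log2 units, and neither gene passed (limma adjusted p = 0.277 and 0.321).

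Capping, severing and depolymerising proteins outside the family were read as 1 list, and only some of them cap filaments as Capg does. None of 32 passed (11 with an unadjusted p under 0.05), 19 were higher and 13 lower by value, and the median was 0.08. Add3, an adducin that caps filaments of the membrane skeleton, read 7.83, 8.11 and 7.73 in HDAC3FF and 7.16, 7.15 and 6.49 in HDAC3ΔIEC, and its difference was -0.95 ± 0.20 (log2, SE; limma, adjusted p = 0.102). Coro2a, a coronin, had one of 0.49 ± 0.11 (limma adjusted p = 0.128). The groups did not overlap for 13 of the 32, Add3 and Coro2a among them, against 16.2% of all genes.

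Nucleation and elongation factors build new filaments. None of 36 passed (8 with an unadjusted p under 0.05), 24 were higher and 12 lower by value, and the median was 0.11. Actr3, a core subunit of the Arp2/3 complex, had a log2 fold change of 0.51 ± 0.12 (SE), and Tmsb4x, the gene of the actin monomer buffer thymosin beta-4, one of -0.38 ± 0.09. Neither passed (limma adjusted p = 0.125 and 0.144). The groups did not overlap for 12 of the 36, against 16.2% of all genes.

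Among actins, tropomyosins and crosslinkers, none of 23 passed (7 with an unadjusted p under 0.05), 12 were higher and 11 lower by value, and the median was 0.00. The groups did not overlap for 8 of the 23, against 16.2% of all genes. The 2 with the smallest p were the plastins Pls3 and Lcp1, which bundle actin as villin does. Pls3 read 7.98, 7.67 and 8.56 on the HDAC3FF arrays and 6.74, 6.46 and 6.95 on the HDAC3ΔIEC arrays, and Lcp1 read 6.11, 6.49 and 5.99 and then 5.27, 5.42 and 5.50. Both were lower on every HDAC3ΔIEC array, with log2 fold changes of -1.35 ± 0.23 and -0.80 ± 0.14 (SE, limma adjusted p = 0.0622 and 0.0706). The calls turned on the setting: both passed without HDAC3FF replicate 3 (-1.11 and -0.90, limma adjusted p = 0.0280 and 0.0293). Both also passed with an intensity trend, with array weights and among genes above the median signal. Pls3 passed among genes above the 25th percentile too, and Lcp1 with quantile normalization. Neither passed under the other alternatives. Lcp1 encodes L-plastin, which blood cells also carry. The lymphocyte markers had summed linear signals of 234 to 268 in HDAC3FF and 216 to 239.7 in HDAC3ΔIEC. The myeloid sums given above were lower in HDAC3ΔIEC, and Cd14 and C1qa contribute most to them. The median log2 fold change of the myeloid list was 0.00. For 8 of its 12 genes, both group means lay under the median of every array. The part of such cells in the Lcp1 values was not tested.

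Serum response factor and its cofactors control many actin genes. None of the 4 passed (0 with an unadjusted p under 0.05), with a median of -0.01; Mrtfb had the smallest p (-0.24 ± 0.11, SE) and Myocd the next (-0.03 ± 0.09). Among 7 genes that set phosphoinositide and calcium levels, none passed (2 with an unadjusted p under 0.05) and the median was -0.04. The calcium channel gene Itpr2 had a log2 fold change of -0.39 ± 0.14 (SE) and the lipid kinase gene Pip5k1b one of 0.34 ± 0.12, with limma adjusted p of 0.351 and 0.353.

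**Figure D5:**
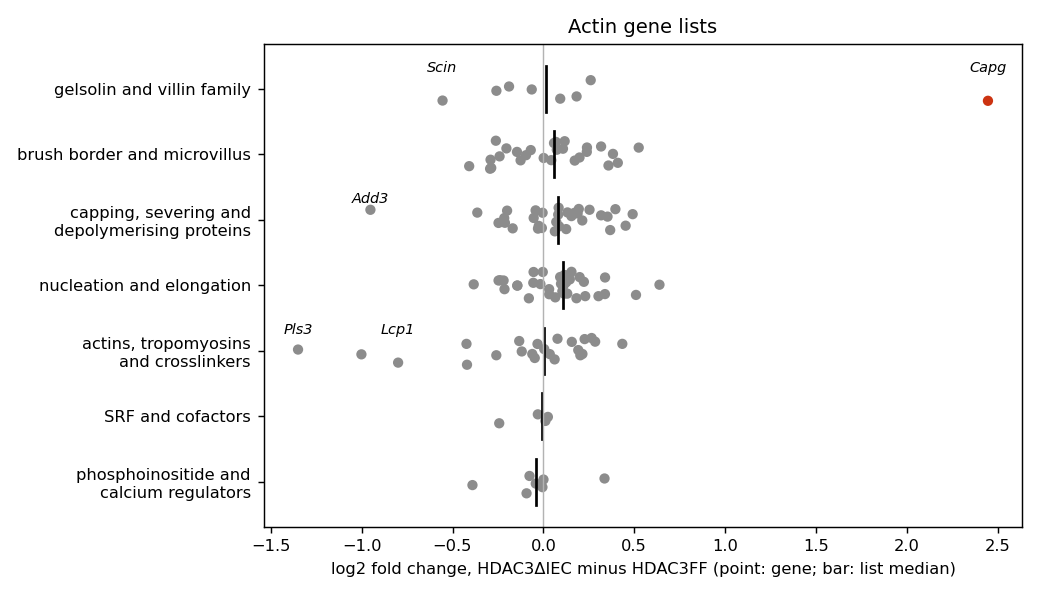
Log2 fold change (HDAC3ΔIEC minus HDAC3FF) of every measured gene of the family and of the 6 other actin lists, 1 point per gene with vertical jitter, list medians as black bars and genes passing over all genes in red. Capg, at 2.45, is the 1 red point, and Pls3, at -1.35, lies farthest on the lower side.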

How the data were processed

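The authors deposited 1 table of log2 signals, one value per probe set and array, for 6 arrays of 6 mice. Per the submitters' processing notes, Affymetrix Power Tools was used; which version, background correction, normalization and genome build applied is not given in the sources used here. The log2 signals were used as deposited. Of 24939 probe sets, 21105 name exactly 1 gene in the platform annotation, 1254 name several and 2580 have no gene listed. The probe set with the highest mean represented a gene, giving 19533 genes. Groups were compared with limma 3.58.1 in R 4.3.3 (lmFit and eBayes, two-sided, no covariate), with Benjamini-Hochberg adjustment over all 19533 genes, and the call threshold was an adjusted p of 0.05. The fit was tested on simulated data. Intervals are 95% and unadjusted. Summed signals add linear values over a list.

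The members and gene lists were chosen with earlier results of these data known. All members are named; of each actin list, up to 3 called genes with the largest change or else the 2 with the smallest p; for Capg and the brightest other member, the 3 nearest profiles, predicted genes aside; and of each marker list its sum. Hdac3, single marker genes other than Pyy, and list members named only for changed calls fall outside that rule and were chosen after their values were seen. Of the listed genes, 2 were matched through a newer symbol. Alternatives tried were array weights, an intensity trend, a replicate block, quantile normalization, median centring, dim-gene filters, all probe sets of a gene, all probe sets tested, and omission of each array. Promoter windows came from RefSeq. Figures used matplotlib 3.10.9.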

Additional observations from a re-analysis of the deposited data

How the results depend on the processing

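Capg kept its direction under all 15 alternatives, which non-overlapping groups fix when arrays are left out, and passed under 8 of them. The number of members called was 0 with the replicate block, 0 with adjustment over all probe sets, and 0 to 1 with single arrays left out; it was 1 otherwise. Over all genes, 137 were called; the count was 12 with the replicate block, 357 with array weights and 13 to 430 with single arrays left out (13 without HDAC3FF replicate 1, 430 without replicate 3). Calls among the 129 genes of the actin lists went from 0 to 2 with an intensity trend, 4 with array weights, 1 with quantile normalization, 1 and 2 with the dim filters (25th percentile, then median), and 0 to 5 with single arrays left out; the 5 came without HDAC3FF replicate 3 (Coro2a, Krt20, Lcp1, Pls3 and Spire2). The cause of these changes was not tested. The labels do not say whether the replicate numbers pair the arrays. Deviations of same-numbered arrays correlated at -0.02, -0.07 and -0.20 across genes, which with 3 arrays per group cannot settle it. The replicate block gave a smaller SE for Capg, Gsn, Scin, Avil and Svil. It gave a larger SE for Vil1, Vill and Flii. With the replicate block Capg had an adjusted p of 0.0866 by limma. Vil1, Vill, Gsn, Scin and Avil kept their signs and did not pass under any alternative, and Svil and Flii changed sign in 3 and 2 of the array omissions. With 3 mice per group, and with no mark of background, small differences in dim members could not be resolved.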
